A study of Homo sapiens with 6 samples.

Results

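The genes described here are 8 adenylyl cyclase genes (ADCY1, ADCY2, ADCY3, ADCY5, ADCY6, ADCY7, ADCY8 and ADCY9) and the 2 genes of the stimulatory G protein alpha subunits, GNAS and GNAL. They were chosen by symbol, each matched exactly 1 row of the deposited table, and they make up 10 of its 30960 genes. RNA was sequenced from HEK293 cells, a line of human embryonic kidney origin, 48 h after a plasmid for a GFP fusion protein was introduced. The fusion partner was PKI1-24 in the PKI group and inPKI1-24 in the control group, inPKI, and each group held 3 libraries, A, B and C. Both groups carried a GFP fusion plasmid at 158 ng per square centimetre with Lipofectamine 3000 and were grown in serum, and no untransfected cells or further agent entered the comparison. The series text speaks of transduction and the protocol of transfection. The promoter of the plasmids and the share of cells that took them up are not given in the sources used here, and the labels do not tell whether A, B and C were separate cultures. The p-values therefore rest on the spread between these 6 samples alone, and that spread may be technical.

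Adenylyl cyclases are membrane enzymes that make cyclic AMP (cAMP) from ATP. A receptor coupled to the stimulatory G protein, Gs, loads its alpha subunit with GTP, and that subunit then binds and activates the cyclase, while inhibitory alpha subunits act against it and calcium-calmodulin, beta-gamma subunits and kinases tune single isoforms. The cAMP formed frees the catalytic part of PKA, the cAMP-dependent kinase, which PKI binds and blocks, and PKA is itself known to phosphorylate and restrain some cyclases, ADCY5 and ADCY6 among them. The comparison asked whether RNA of this step upstream of PKA differed between cells with the PKI fusion and cells with the control fusion.

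Depth came to 17244715 to 23589438 reads per library, recovered from the deposited CPM, which are reads multiplied by 1 factor per library, and 14275 genes reached 1 CPM in at least 3 libraries and were tested. PKIA, the gene of the alpha form of PKI, separated the libraries as labelled, at 9.05, 11.3 and 8.65 CPM in inPKI A, B and C and at 43.2, 42.3 and 46.1 CPM in PKI A, B and C. Reads of a plasmid and of the cells' own PKIA cannot be told apart here. Of 11 genes chosen as typical of the HEK293 line all 11 were tested and 0 passed in limma (1 before adjustment at p below 0.05, and none by edgeR or DESeq2). The 1 gene was NEFL, at 67.6, 69.2 and 68.8 CPM in inPKI and 60.9, 62.9 and 55.6 CPM in PKI. Its log2 change was -0.19 ± 0.057 (SE, adjusted p = 0.178). PKI lay above inPKI without overlap in 2 of the 11 and below it in NEFL alone, against 10.9% and 8.88% of all genes tested. The summed level of the 11 genes was 939 to 964 CPM in inPKI and 834 to 955 CPM in PKI. Most of this sum came from VIM, with a mean of 638 CPM in inPKI and 605 CPM in PKI. The sum therefore says little about the lower genes of the list, such as PAX2 at 0.579 to 1.31 CPM over the 6 libraries. Leukocyte markers summed to 1.16 to 1.68 CPM in inPKI and 1.36 to 1.92 CPM in PKI over 5 genes, with CD3E listed at 0 in all libraries and PTPRC at 0 in inPKI. Fibroblast markers summed to 18.7 to 21.0 CPM and 19.3 to 22.6 CPM over 5 genes, nearly all from COL1A1, with DCN at 0. Keratinocyte markers summed to 28.0 to 52.3 CPM and 25.6 to 29.9 CPM over 5 genes. The upper end in inPKI was inPKI C alone, where KRT5 was at 26.5 CPM against 13.2 and 10.2 CPM in inPKI A and B, and KRT14 at 12.2 CPM against 4.95 and 4.60 CPM. In bulk RNA, fewer cells expressing a gene and less of its RNA per cell cannot be told apart.

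The PKI over inPKI ratio of mean CPM lay between 0.954 (GNAS) and 1.16 (ADCY1) in 7 of the genes of this step, and at 1.63 in ADCY5, the lowest of those tested. Of the 10 genes, 8 passed the filter on low values and 0 of these 8 passed an adjusted p of 0.05 in limma, where 0.126% of all genes tested were called. The adjusted p ran from 0.189 (ADCY1) to 0.930 (GNAL). By edgeR 0 and by DESeq2 0 of the 8 passed, against 0.0771% and 1.51% of all genes tested. Before adjustment, 3 of the 8 had a limma p below 0.05 (ADCY1, ADCY5 and ADCY6), each higher in PKI, where 7.53% of all genes tested were higher and 6.16% lower, 13.7% in all. In the same 3 genes every PKI library lay above every inPKI library, which held for 10.9% of all genes tested, with 8.88% the other way round and 19.7% in all. With all 6 libraries the log2 change was 0.21 in ADCY1, 0.44 in ADCY5 and 0.15 in ADCY6. Without inPKI C, the library with the higher keratin levels, it was 0.28 in ADCY1, 0.43 in ADCY5 and 0.16 in ADCY6. Without inPKI B it was 0.16 in ADCY1, 0.48 in ADCY5 and 0.13 in ADCY6. In the other 5 genes the groups overlapped. The log2 change was above 0 in each of the 6 tested cyclases and below 0 in GNAS and GNAL, with a median of 0.11 over the 8 genes and -0.0074 over all genes tested, of which 47.4% were above 0.

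**Figure D1:**
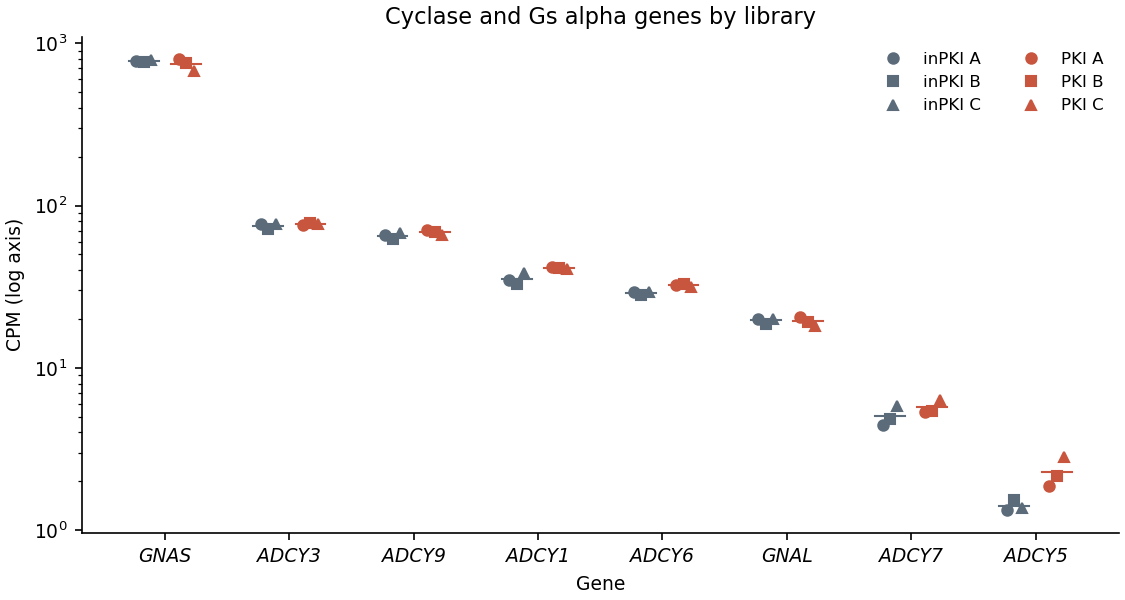
CPM on a log axis for the 8 genes that passed the filter, 1 point per library (grey, inPKI; red, PKI; circle, A; square, B; triangle, C), with a line at each group mean. GNAS lies highest at 678 to 797 CPM and ADCY5 lowest at 1.33 to 2.84 CPM, and the groups are apart in ADCY1, ADCY5 and ADCY6.

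GNAS encodes the alpha subunit of Gs, which carries the signal from receptor to cyclase. It measured 775, 769 and 791 CPM in inPKI A, B and C and 797, 753 and 678 CPM in PKI A, B and C. PKI A was the highest of the 6 libraries and PKI C the lowest, so the groups overlapped. On the log2(CPM + 1) scale, PKI differed from inPKI by -0.071 ± 0.073 (log2 change and SE), with a 95% interval of -0.23 to 0.086 and an adjusted p of 0.695. It was -0.0067 ± 0.037 without PKI C and -0.12 ± 0.085 without PKI A, so its size rested on single PKI libraries. The gene (ENSG00000087460.24, chromosome 20, 58839718 to 58911192 in GRCh38) has 58 annotated transcripts with 52 start positions in GENCODE 29, from several promoters, and the deposited row adds them all into 1 value. Its antisense neighbour GNAS-AS1, with 1127 shared exon bases, was at 0.481 to 1.05 CPM.

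GNAL encodes the Gs-like alpha subunit of olfactory neurons and the striatum. It was present in these kidney-derived cells at 20.0, 18.7 and 20.1 CPM in inPKI A, B and C and at 20.7, 19.3 and 18.0 CPM in PKI A, B and C. The libraries of both groups interleaved, and PKI C was again the lowest. The log2 change was -0.020 ± 0.073 (SE), with a 95% interval of -0.18 to 0.14 and an adjusted p of 0.930. Leaving out 1 library took it from -0.068 (without PKI A) to 0.028 (without PKI C). GNAL (chromosome 18, 11688956 to 11885685) shares 2261 exon bases with MPPE1 on the opposite strand, which measured 6.50 to 8.74 CPM. Per kilobase of median transcript length the ratio of GNAS to GNAL was 41.9 to 45.7 in the 6 libraries, with inPKI A at 43.1, inPKI B at 45.7, inPKI C at 43.8, PKI A at 42.8, PKI B at 43.4 and PKI C at 41.9. The PKI libraries lay below inPKI B and inPKI C, and inPKI A lay among them.

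Among the cyclases stimulated by calcium and calmodulin, ADCY1, known from neurons, was at 34.7, 32.8 and 38.6 CPM in inPKI A, B and C and at 41.7, 41.1 and 40.5 CPM in PKI A, B and C. The PKI libraries lay within 1.19 CPM of each other and all above the highest control library, inPKI C. The means were 35.4 ± 2.92 and 41.1 ± 0.596 CPM (SD, n = 3 each), and the log2 change was 0.21 ± 0.065 (SE), with a 95% interval of 0.076 to 0.35. The adjusted p was 0.189 in limma, the smallest of the 8 genes, 0.150 by edgeR and 0.0831 by DESeq2, and it ranged from 0.0831 to 0.700 over the alternatives. ADCY1 (ENSG00000164742.14) lies on chromosome 7, 45574140 to 45723116.

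ADCY3, the cyclase of olfactory and primary cilia, was the cyclase with the highest CPM. It measured 76.7, 71.3 and 76.6 CPM in inPKI A, B and C and 76.2, 78.5 and 77.3 CPM in PKI A, B and C. Only inPKI B stood off, below the other 5 libraries, and the groups overlapped. The log2 change was 0.047 ± 0.053 (SE), with a 95% interval of -0.066 to 0.16, which in fold is 0.955 to 1.12, and an adjusted p of 0.721. Without inPKI B the change was 0.013. ADCY3 (chromosome 2, 24819169 to 24919839) shares 1488 exon bases with CENPO on the opposite strand, at 47.5 to 56.5 CPM. The counting is not stated to use strand, so reads of such partners cannot be told apart. The third calcium-stimulated gene, ADCY8, had 0 reads in all 6 libraries, and a count of 0 allows up to 3 reads, which is 0.0998 to 0.131 CPM in a library and 0.0191 CPM over the 6 together. These limits and all read counts here cover counting error only.

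ADCY5 and ADCY6 are the cyclases that calcium inhibits and that PKA is known to restrain. ADCY6 measured 29.4, 28.1 and 29.5 CPM in inPKI A, B and C and 32.2, 33.0 and 31.5 CPM in PKI A, B and C. All PKI libraries lay above all control libraries, with a gap of 2.09 CPM between the groups. The log2 change was 0.15 ± 0.059 (SE), with a 95% interval of 0.023 to 0.28, and the adjusted p was 0.298 in limma, 0.198 by edgeR and 0.270 by DESeq2. ADCY6 (ENSG00000174233.11) lies on chromosome 12, 48766194 to 48789037.

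ADCY5, the cyclase of heart and striatum, was near the filter, at 34, 42 and 33 reads in inPKI A, B and C and 51, 65 and 65 reads in PKI A, B and C. In CPM these were 1.33, 1.53 and 1.37 in inPKI and 1.88, 2.16 and 2.84 in PKI. The groups did not overlap, and PKI C, the shallowest library, was the highest. The ratio of mean CPM was 1.63, while the log2 change on the log2(CPM + 1) scale, which understates low genes, was 0.44 ± 0.15 (SE), with a 95% interval of 0.13 to 0.76. The adjusted p was 0.221 in limma and 0.194 by edgeR, and DESeq2 gave none for it. The change was 0.33 without PKI C and 0.54 without PKI A. ADCY5 (ENSG00000173175.14) lies on chromosome 3, 123282296 to 123449758.

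ADCY7 and ADCY2 belong to the cyclases that beta-gamma subunits stimulate together with the alpha subunit. ADCY7 measured 4.45, 4.85 and 5.83 CPM in inPKI A, B and C and 5.32, 5.46 and 6.34 CPM in PKI A, B and C. The groups overlapped, and the C library was the highest in both. The log2 change was 0.15 ± 0.12 (SE), with a 95% interval of -0.094 to 0.40 and an adjusted p of 0.576. The change was 0.25 without inPKI C, 0.082 without inPKI A and 0.086 without PKI C. ADCY7 (chromosome 16, 50246137 to 50318135) shares 3593 of its 8630 exon bases with BRD7 on the opposite strand, and BRD7 was at 93.6 to 113 CPM, so part of the 114 to 164 reads counted for ADCY7 may not be its own. This was not tested. ADCY2 had 0, 1 and 2 reads in inPKI and 0, 0 and 2 reads in PKI, in each library under the 3 reads that a count of 0 allows. Its mean over the 6 libraries, 0.0344 CPM, was above the limit of 0.0191 CPM for the 6 together. No difference between the groups was detectable at this depth.

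ADCY9, the isoform that responds poorly to forskolin, measured 65.8, 62.7 and 67.8 CPM in inPKI A, B and C and 70.9, 69.1 and 65.7 CPM in PKI A, B and C. PKI C lay between the control libraries, so the groups overlapped. The log2 change was 0.068 ± 0.055 (SE), with a 95% interval of -0.050 to 0.19 and an adjusted p of 0.601 (ENSG00000162104.9, chromosome 16, 3953387 to 4116185). It was 0.038 without inPKI B and 0.044 without PKI A. The 2 cyclase genes outside the set were hardly present. ADCY4 had 0 or 1 read in each library, and the soluble cyclase gene ADCY10 had 2, 13 and 3 reads in inPKI and 12, 4 and 5 reads in PKI.

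**Figure D2:**
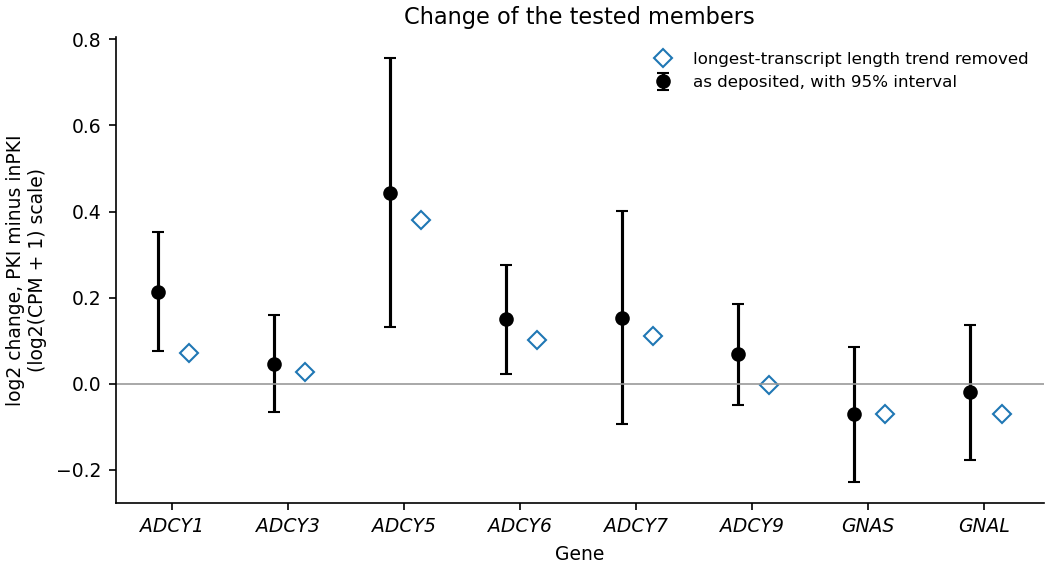
Log2 change (PKI minus inPKI, log2(CPM + 1) scale) of the 8 tested genes, with the 95% interval from limma (black) and the value after the trend of the longest transcript length was removed (blue diamonds). The intervals of ADCY1, ADCY5 and ADCY6 lie above 0 before adjustment for multiple testing, and ADCY1 moves from 0.21 to 0.072.

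Transcript length, taken as the longest annotated transcript, moved with the groups over all genes, and by that measure most tested cyclases are long. The tested genes were divided into 5 classes of equal size by their longest annotated transcript. In the class with the shortest transcripts the PKI libraries lay above all control libraries in 3.09% of genes and below in 21.5%. In the class with the longest transcripts, from 5838 nt, they lay above in 29.9% and below in 1.90%. The median log2 change went from -0.098 in the shortest class to 0.075 in the longest. Of the 8 tested genes 6 were in the longest class, with ADCY3 (5050 nt) in class 4 and GNAS (4029 nt) in class 3. The longest transcript of ADCY1 has 12503 nt, longer than that of 98.2% of tested genes. The longest class also held GNAL (6535 nt), whose log2 change was -0.020. By median transcript length the same genes fell elsewhere. ADCY5, ADCY7 and ADCY9 were then in class 1, the shortest, and GNAS and GNAL in class 2. ADCY3 was in class 3, and ADCY1 and ADCY6 were in class 4.

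The trend of longest transcript length was then taken out, a choice made after the data were seen. The log2 change of ADCY1 became 0.072 ± 0.060 (SE, adjusted p = 0.700). That of ADCY6 was 0.10 ± 0.051 (adjusted p = 0.515), that of ADCY5 0.38 ± 0.15 (adjusted p = 0.417) and that of ADCY7 0.11 (adjusted p = 0.771). ADCY9 came to -0.0035 and ADCY3 to 0.027. ADCY1 moved furthest of the 3 genes whose groups were apart, and ADCY5 and ADCY6 stayed within 1 SE of their former values. GNAS was at -0.070 and GNAL at -0.069, the same sign as before. With the trend of median instead of longest transcript length removed, ADCY1 was at 0.22, ADCY6 at 0.15 and ADCY5 at 0.46, so the smaller ADCY1 value depends on which length is used. The trend runs with the groups, so its removal can also take away a difference between them.

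**Figure D3:**
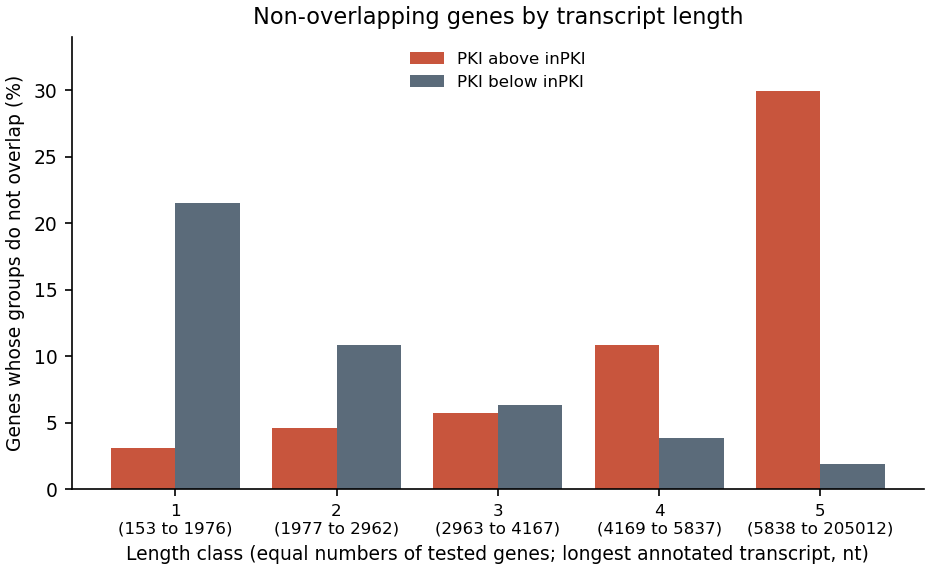
Share of tested genes (%) whose PKI libraries all lie above (red) or all below (grey) the inPKI libraries, in 5 classes of genes by longest annotated transcript (nt). The share above rises from 3.09% to 29.9% and the share below falls from 21.5% to 1.90%. Of the 8 tested genes described here, 6 belong to the longest class.

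Levels were compared between genes per kilobase, as CPM divided by the median length of a gene's annotated transcripts. On this scale GNAS was highest, at 909 to 1068 CPM per kb over the 6 libraries. Of the cyclases ADCY9 (89.9 to 102) and ADCY3 (80.4 to 88.5) stood far above the others, and their ranges did not overlap. GNAL (21.7 to 24.9) and ADCY1 (19.9 to 25.3) did not differ beyond their spread, ADCY6 (16.6 to 19.5) lay just under them, and ADCY7 (6.64 to 9.47) and ADCY5 (2.04 to 4.38) followed without overlap. ADCY2 was at 0 to 0.129 CPM per kb. Median lengths include short partial transcripts, and with the longest transcript instead the order of neighbours changed, with ADCY3 (14.1 to 15.5) above ADCY9 (8.11 to 9.18) and ADCY6 (4.35 to 5.11) above ADCY1 (2.63 to 3.33).

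As shares of the summed cyclase level per kb of median length, ADCY9 made up 41.4% ± 0.0901 in inPKI and 40.7% ± 1.19 in PKI, and ADCY3 37.2% ± 0.625 and 36.1% ± 0.627 (SD, n = 3 each). ADCY1 made up 9.46% ± 0.420 and 10.3% ± 0.0885, and ADCY6 7.56% ± 0.146 and 7.88% ± 0.108. ADCY5 made up 0.960% ± 0.112 and 1.47% ± 0.331. In percentage points the share of ADCY3 moved furthest, by -1.18 with the median length and by -1.47 with the longest. The ADCY3 level itself was not lower, at 84.4 ± 3.44 CPM per kb of median length in inPKI and 87.2 ± 1.29 in PKI. Summed over the 10 cyclase genes, ADCY4 and ADCY10 included, the level was 212, 202 and 220 CPM in inPKI A, B and C and 229, 229 and 225 CPM in PKI A, B and C.

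**Figure D4:**
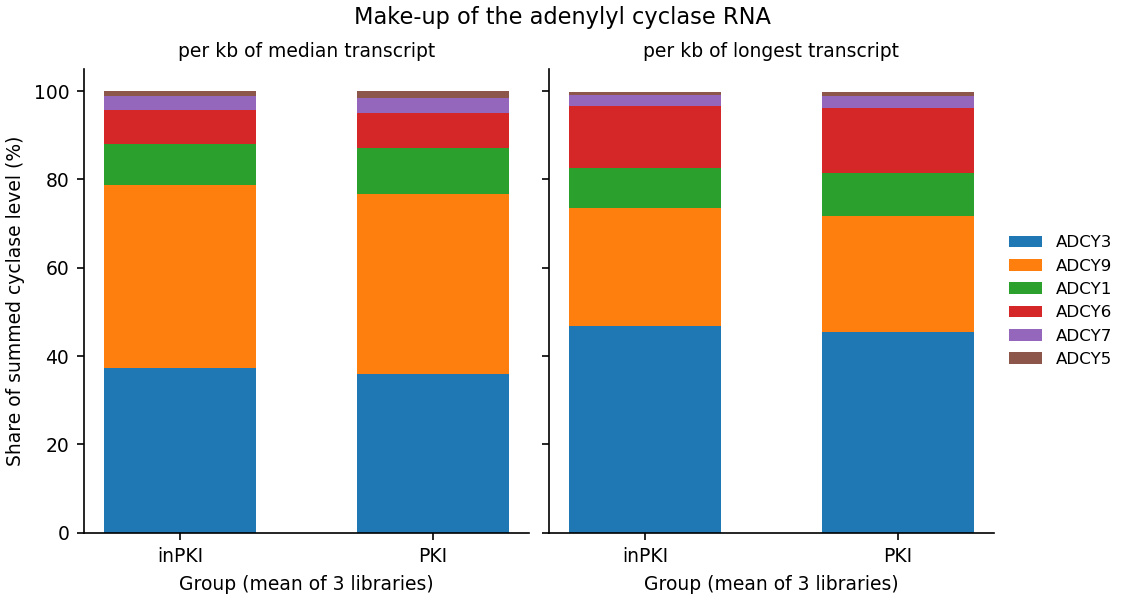
Share (%) of each of 6 cyclases in the summed cyclase level per kb, as the mean of 3 libraries per group, with the median (left) or the longest (right) annotated transcript as length; error is given in the text, and the other 4 cyclases are too low to be seen and are not drawn. ADCY9 leads on the left at 41.4% and 40.7%, and ADCY3 on the right at 46.8% and 45.4%.

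Promoter windows of 250 bases before and 50 bases after a gene's start, from RefSeq on GRCh38.p14, were on hand for 7 of the 10 genes in 19 windows. They are shown because PKA acts on transcription through the factor CREB, which binds the cAMP response element. The full element, TGACGTCA, was in 0 of the 19 windows, and in 1.85% of all 35116 windows of the table. Its core, TGACG on either strand, was in 8 of the 19 windows, of 5 genes, and in 24.6% of all windows. By gene, 5 of the 7 had it in at least 1 window against 28.4% of the 27305 genes of the table, and these 7 have more windows each. Windows of 1 gene can overlap, and the ADCY1 core at position -17 of the first start is the same site as that at -245 of the second. The upstream 250 bases follow for ADCY1, whose core lies close to its start, and for ADCY5, which has none in this window. They also follow for GNAS at 1 of its several starts, the one nearest to transcript GNAS-214. Which GNAS transcripts encode the Gs alpha subunit was not looked up, so this window may not be the promoter of that form. Each is printed 5′ to 3′ on the gene's strand, with the core in capitals and -1 as the base before the start.
ADCY1, plus strand, chr7:45573890-45574139: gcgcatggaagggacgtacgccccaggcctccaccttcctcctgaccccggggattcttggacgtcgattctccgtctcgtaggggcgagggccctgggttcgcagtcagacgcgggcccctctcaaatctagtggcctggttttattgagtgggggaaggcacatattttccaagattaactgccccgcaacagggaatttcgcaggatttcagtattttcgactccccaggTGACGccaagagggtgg
ADCY5, minus strand, chr3:123416343-123416592: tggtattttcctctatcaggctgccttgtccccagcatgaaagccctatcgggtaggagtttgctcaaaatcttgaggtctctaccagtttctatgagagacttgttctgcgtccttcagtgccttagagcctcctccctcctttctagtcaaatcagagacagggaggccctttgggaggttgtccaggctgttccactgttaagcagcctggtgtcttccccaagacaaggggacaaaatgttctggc
GNAS, plus strand, chr20:58852466-58852715: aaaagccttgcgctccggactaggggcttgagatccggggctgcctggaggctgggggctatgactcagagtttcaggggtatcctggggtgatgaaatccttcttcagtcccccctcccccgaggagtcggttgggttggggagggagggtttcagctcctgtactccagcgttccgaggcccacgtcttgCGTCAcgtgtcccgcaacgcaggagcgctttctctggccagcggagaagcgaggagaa
In ADCY1 the core starts at -17 on the forward strand, and in this GNAS window it starts at -58 on the reverse strand. A GNAL window on chromosome 18, with its first base at 11857753, holds 3 cores, at -137, -83 and -63. All 250 of its upstream bases lie in annotated exons, and the other GNAL windows hold no core. A match is a run of letters and not a measured binding site, and the counts by gene do not separate transcripts by start.

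Other genes of the same step were taken from lists by role. Of 12 tested receptors coupled to Gs, 0 passed in limma (1 before adjustment at p below 0.05, and none by edgeR or DESeq2), with 9 log2 changes above 0, against 47.4% of all genes tested, and a median of 0.033. The smallest p was that of GPR161, an orphan receptor of the primary cilium, at 17.3, 15.5 and 15.1 CPM in inPKI and 18.9, 20.0 and 18.7 CPM in PKI. Its log2 change was 0.25 ± 0.075 (SE, adjusted p = 0.183). Among 5 tested inhibitory alpha subunits 0 passed (1 before adjustment, 0 by edgeR, 0 by DESeq2; median -0.047). GNAO1, the alpha subunit abundant in brain, was at 12.1, 10.2 and 11.5 CPM in inPKI and 14.6, 13.4 and 12.7 CPM in PKI (adjusted p = 0.239).

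Beta and gamma subunits gave 0 of 6 and 0 of 7 in limma (0 and 1 before adjustment, 0 by edgeR, 0 by DESeq2 in each list), with medians of -0.020 and -0.074. The members with the smallest p were GNB2, at -0.13 ± 0.071 (SE, adjusted p = 0.429), and GNG4, at -0.13 ± 0.062 (adjusted p = 0.362). Of the 4 tested remaining alpha subunits 0 passed (0 before adjustment, 0 by edgeR, 0 by DESeq2; median 0.038), with GNAQ at 0.084 ± 0.056 (adjusted p = 0.517). Of 23 regulators of cyclases and Gs, among them calmodulins and the alpha subunit chaperones RIC8A and RIC8B, 0 passed (2 before adjustment, 0 by edgeR, 0 by DESeq2), with 8 changes above 0, 15 below and a median of -0.015. The list was led by AKAP9, an anchoring protein that binds PKA and cyclases, at 0.28 ± 0.084 (SE, adjusted p = 0.190). The 3 tested guanylyl cyclases, which make cyclic GMP, gave 0 (0 before adjustment, 0 by edgeR, 0 by DESeq2; median 0.055), with GUCY1A2 at 0.12 ± 0.11 (adjusted p = 0.652). The counts before adjustment (p below 0.05) stand against 13.7% of all genes tested.

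The genes most like GNAS in pattern, over the 6 libraries on the log2(CPM + 1) scale, were CDIPT, the phosphatidylinositol synthase gene (Pearson r = 0.999), CFL1, the actin-severing cofilin (r = 0.996), and LINC00094 (r = 0.996), among 11054 genes with a mean of at least 5 CPM. In each of them PKI A was the highest library and PKI C the lowest, as in GNAS, and 264 genes had r above 0.95. For ADCY3 they were KNL1, a kinetochore gene (r = 0.978), ZNF845 (r = 0.978) and RIOK3 (r = 0.975), and in each of them inPKI B was the lowest library, as in ADCY3. These correlations rest on 6 points that share library depth, and they are given as a description.

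The authors' deposited table of their own DESeq2 comparison called none of these genes. Only 14 genes among its 30960 rows had an adjusted p below 0.05 there, so none called in so small a set says little. Turned to read PKI over inPKI, the log2 fold change in the authors' deposited table was 0.23 for ADCY1, 0.17 for ADCY6, 0.71 for ADCY5 and -0.057 for GNAS. The adjusted p in the authors' deposited table was 0.999944 for each of the 8 tested genes, and NA for ADCY2 and ADCY8. In the authors' deposited table the sign of the log2 column is opposite to that of the signed fold in all 30960 rows, and 96.1% of tested genes match the CPM once it is turned. The mean signal there is above 0 in all 2069 genes that are 0 in the 6 libraries, ADCY8 among them (0.214), and where that signal comes from was not tested.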

How the data were processed

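Tools in the submitters' processing notes are RSEM 1.3.0, STAR 2.5.2b, cutadapt 1.14 and DESeq2 1.20.0, with build hg19, without role or order. The authors deposited CPM scaled by TMM, per the file name, with 1 column per library. All values (100%, tolerance 0.01 reads) were whole multiples of what 1 read is worth (0.0333 to 0.0437 CPM), which gave the reads; whether RSEM estimates were rounded is not stated. Per the file headers, the authors' own comparison holds a mean signal, a log2 fold change with SE, a Wald score, a p-value and a signed fold score.

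Values were taken as log2(CPM + 1) for genes with at least 1 CPM in at least 3 of 6 libraries and fitted with limma 3.58.1 (R 4.3.3, trend, 2-sided, Benjamini-Hochberg over 14275 genes, threshold 0.05). An adjusted p is from limma unless another tool is named. Alternatives were edgeR 4.0.16 and DESeq2 1.42.0 on the reads, pseudocounts of 0.25 and 5, no filter, a 5 CPM filter, 2 rescalings, a replicate block, no trend, removal of length or GC trends (lowess, span 0.3) and leaving out each library; the tests were tried on simulated data. Coordinates and lengths are from GENCODE 29 on GRCh38 by gene identifier (30795 matched, 165 did not), not from the authors' hg19 alignment. Figures used matplotlib 3.10.9. Named were all members, ADCY4, ADCY10, PKIA and, per list, the gene with the smallest p; genes typical of the line or of other cells, and antisense partners, were named after their values were seen. The members and lists were chosen with earlier results of these data known.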

Additional observations from a re-analysis of the deposited data

Results flagged for a closer look

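In the authors' deposited table ADCY4 has a mean signal of 15.3, although the 6 libraries hold 2 reads of it in inPKI and 1 in PKI, a mean 30.6 times less. This is signal above the 3 reads that a count of 0 allows. ADCY7 has a mean signal in the authors' deposited table that is 2.52 times its mean reads here, against a median of 0.716 over tested genes, and ADCY1 has 0.348 times. Both lie inside the range of 0.323 to 3.37 that holds the middle 90% of tested genes. The source of these ratios was not tested.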

How the results depend on the processing

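In 151 refits of single genes over 19 alternatives, 0 reached an adjusted p of 0.05 (DESeq2 gave none in 2), and 148 kept their direction. ADCY9 turned to -0.0035 with the longest-transcript length trend removed, and GNAL to 0.0058 with the median-length trend removed; leaving out 1 library gave GNAL -0.068 to 0.028. Over all genes 18 were called, 14 higher and 4 lower. The count was 4 with no filter or with no trend in limma, 11 with equal-sum rescaling (10 higher and 1 lower), 11 by edgeR, 216 by DESeq2, 11 with the GC trend removed, 10 with either length trend removed, and 9 to 114 with 1 library left out (without inPKI B and without PKI B). With the replicate block it was 124, and 0 of the 8 genes passed. Same-letter libraries correlated by 0.017, 0.014 and 0.028 in their deviations, each letter best with itself. These small values were not tested and do not decide whether the letters are pairs. The labels do not tell whether libraries with the same letter belong together, so the main fit did not pair them. Per kb of longest transcript, levels were 189 for GNAS, 15.1 for ADCY3, 8.67 for ADCY9, 4.74 for ADCY6, 3.06 for ADCY1, 2.98 for GNAL, 0.865 for ADCY7 and 0.253 for ADCY5. Depth limits ADCY2, ADCY4, ADCY8 and ADCY10.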
